A study of Mus musculus with 8 samples.

Results

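The 7 genes described here, Stfa1, Stfa2, Stfa3, Stfa2l1, Cstdc4, Cstdc5 and Cstdc6, encode mouse stefin A and related cystatins. They do not cover all close relatives: Csta2 and Csta3, stefin genes of the same cluster, are outside the 7. Stefins are type 1 cystatins, small proteins that stay in the cytosol and block papain-like cysteine proteases such as the lysosomal cathepsins B, H, L and S. The human genome carries a lone stefin A gene, CSTA, whereas the mouse genome carries a cluster of copies, and mouse neutrophils and their precursors are known to express several of them. The genes were picked by symbol, with their levels in LPS+YW3-56 and control lungs of these same mice already known, so all their levels are a description without a test. They are 7 of the 55416 genes in the count files and 6 of the 18560 genes that passed a filter on low counts; Cstdc6 did not pass. Stfa2, Stfa3 and Cstdc5 had 0 counts in every control mouse and passed through the treated mice.

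RNA from the lung on 1 side of 8 female C57BL/6 mice (C57BL/6J in the study's methods), 6 to 8 weeks old, was sequenced to ask how endotoxin and an inhibitor of protein arginine deiminases change lung transcripts. The 3 control mice received DMSO and then saline, and the 3 LPS mice received 35 mg/kg of bacterial lipopolysaccharide (LPS). The 2 LPS+YW3-56 mice received 10 mg/kg of the inhibitor YW3-56 in DMSO shortly before the same dose of LPS, and all lungs were taken at 24 h. The methods of the study speak of 3 mice in each group, while its figure of these data and the sample labels give 2 for LPS+YW3-56, and the methods name no DMSO for the LPS mice. Libraries held between 19061949 and 20908608 counts.

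Levels are counts per 1000000 counts of a library (CPM), scaled by edgeR's TMM factors. Values are listed by mouse number, which is 1, 2 or 4 for controls, 1, 6 or 7 for LPS mice and 2 or 5 for LPS+YW3-56 mice. The tissue label fits its markers: 10 lung epithelium and endothelium genes summed to 69444, 70786 and 76146 CPM in control mice, 97893, 78866 and 72622 in LPS mice and 44811 and 57736 in LPS+YW3-56 mice, with Scgb1a1, a secretory product of club cells, the most abundant per kilobase. Of these 10 genes, 1 rose and 1 fell in LPS against control lungs, and 1 rose and 1 fell in LPS+YW3-56 against LPS lungs. Between LPS+YW3-56 and control lungs 0 were called by edgeR, 0 at an unadjusted p under 0.05 and 0 by DESeq2, but 2 were without LPS+YW3-56 mouse 5. The 2 calls between the treated groups were 1 by library size alone, and the 2 in LPS against control lungs were 1 with no filter. A pair of libraries stood apart. LPS mice 6 and 7 held 895 and 2327 CPM of 18 squamous epithelium genes, against 40.2 in LPS mouse 1, 49.1 to 62.2 in control mice and 59.9 and 86.6 in LPS+YW3-56 mice. Since human stefin A is known from squamous epithelium as well as from blood cells, values are given for each LPS mouse, and the part of squamous cells in them was not tested.

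Summed over the 7 genes, stefin A transcripts were scarce in control lungs, higher after LPS and higher again when YW3-56 preceded LPS. The family sum was 2.15, 0.563 and 1.10 CPM in control mice, 27.5, 51.3 and 28.6 CPM in LPS mice and 94.0 and 147 CPM in LPS+YW3-56 mice. The 3 groups did not overlap. Group means were 1.27 ± 0.808 CPM (SD, n = 3), 35.8 ± 13.5 CPM (n = 3) and 120 ± 37.3 CPM (n = 2). In the mean, LPS lungs exceeded control lungs 28.1-fold, a log2 ratio of 4.81. In LPS+YW3-56 lungs it was 94.5-fold higher than in controls, a log2 ratio of 6.56, and 3.36-fold higher than in LPS lungs, a log2 ratio of 1.75. With each mouse left out in turn, these log2 ratios ran from 4.46 to 5.42, from 6.21 to 7.17 and from 1.39 to 2.10, and control sums rest on 12 to 44 counts. Summed over all 15 stefin-like genes of the cluster, Csta1, Csta2 and Csta3 included, the folds in the same order were 19.6, 57.8 and 2.94. These are small amounts of RNA: the sum of the 7 genes took up 0.0104% and 0.016% of all counts in the LPS+YW3-56 mice. In bulk tissue, more cells of a type and more RNA per cell cannot be told apart.

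The family divided into genes that LPS mice already expressed and genes that were high mainly in LPS+YW3-56 mice. This division was drawn after the counts had been seen. Stfa2l1 and Cstdc4 form the first set, Stfa1 lies in between, and Stfa2, Stfa3 and Cstdc5 form the second, with Cstdc6 near the limit of detection.

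Stfa2l1 (ENSMUSG00000059657), a stefin A2-like gene, stood at 1.13, 0.375 and 0.506 CPM in control mice, 11.7, 23.8 and 12.6 CPM in LPS mice and 21.4 and 29.8 CPM in LPS+YW3-56 mice. All treated mice lay above all control mice, while the LPS and LPS+YW3-56 groups overlapped, with LPS mouse 6 above LPS+YW3-56 mouse 2. The group means were 0.669 ± 0.401, 16.0 ± 6.73 and 25.6 ± 5.93 CPM. The mean of LPS+YW3-56 lungs was 1.60-fold that of LPS lungs, a log2 ratio of 0.68. Scaled by library size alone, the same ratio was 0.99 and the groups no longer overlapped, at 23.8 to 32.5 CPM against 9.52 to 21.3 CPM.

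Cstdc4 (ENSMUSG00000079597), a stefin A family gene named for its cystatin domain, stood at 0.881, 0.141 and 0.184 CPM in control mice, 12.2, 20.9 and 11.3 CPM in LPS mice and 26.7 and 37.7 CPM in LPS+YW3-56 mice. The 3 groups did not overlap. Its means were 0.402 ± 0.415, 14.8 ± 5.31 and 32.2 ± 7.74 CPM, so that LPS lungs were 36.8-fold above control lungs. From LPS to LPS+YW3-56 lungs the mean was 2.18-fold higher, a log2 ratio of 1.12.

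Stfa1 (ENSMUSG00000071562), the gene that gave the mouse family its name, stood at 0.147, 0.0469 and 0.414 CPM in control mice, 2.08, 2.19 and 1.73 CPM in LPS mice and 7.94 and 11.3 CPM in LPS+YW3-56 mice. The groups did not overlap, and the 3 LPS mice lay close together. The mean of LPS lungs was 9.88-fold that of control lungs. The mean of LPS+YW3-56 lungs was in turn 4.81-fold that of LPS lungs, a log2 ratio of 2.26.

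Stfa2 (ENSMUSG00000022902), the closest relative of Stfa2l1 in the cluster, had 0 counts in the 3 control mice, stood at 0.653, 2.54 and 1.45 CPM in LPS mice and reached 16.4 and 31.0 CPM in LPS+YW3-56 mice. The lower LPS+YW3-56 mouse was far above the highest LPS mouse. Against a floor of 3 counts in each control library, which corresponds to 0.138 to 0.147 CPM, LPS lungs were at least 10.9-fold and LPS+YW3-56 lungs at least 167-fold higher. Between the treated groups the mean differed 15.3-fold, from 1.55 ± 0.948 to 23.7 ± 10.4 CPM.

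Stfa3 (ENSMUSG00000054905), another stefin A gene, had 0 counts in control mice, 0.593, 1.10 and 0.837 CPM in LPS mice and 11.8 and 19.2 CPM in LPS+YW3-56 mice. As for Stfa2, LPS mice were low and both LPS+YW3-56 mice were high, with a wide gap between them. LPS lungs were at least 5.94-fold and LPS+YW3-56 lungs at least 109-fold above control lungs, and the treated groups differed 18.4-fold.

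Cstdc5 (ENSMUSG00000071561) also had 0 counts in control mice, with 0.178, 0.809 and 0.726 CPM in LPS mice and 9.48 and 17.3 CPM in LPS+YW3-56 mice. LPS mouse 1, at 3 counts, was at the floor. The mean went from 0.571 ± 0.343 CPM in LPS lungs to 13.4 ± 5.49 CPM in LPS+YW3-56 lungs, which is 23.4-fold and the widest ratio between the treated groups among the 6 genes with counts in both. LPS lungs were at least 4.02-fold and LPS+YW3-56 lungs at least 94.3-fold above control lungs.

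Cstdc6 (ENSMUSG00000079594) had 0 counts in the 6 control and LPS mice and 5 and 9 counts, or 0.227 and 0.395 CPM, in the LPS+YW3-56 mice. At this depth it was detected in LPS+YW3-56 lungs alone, at least 2.19-fold above control lungs and at least 1.80-fold above LPS lungs.

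**Figure D1:**
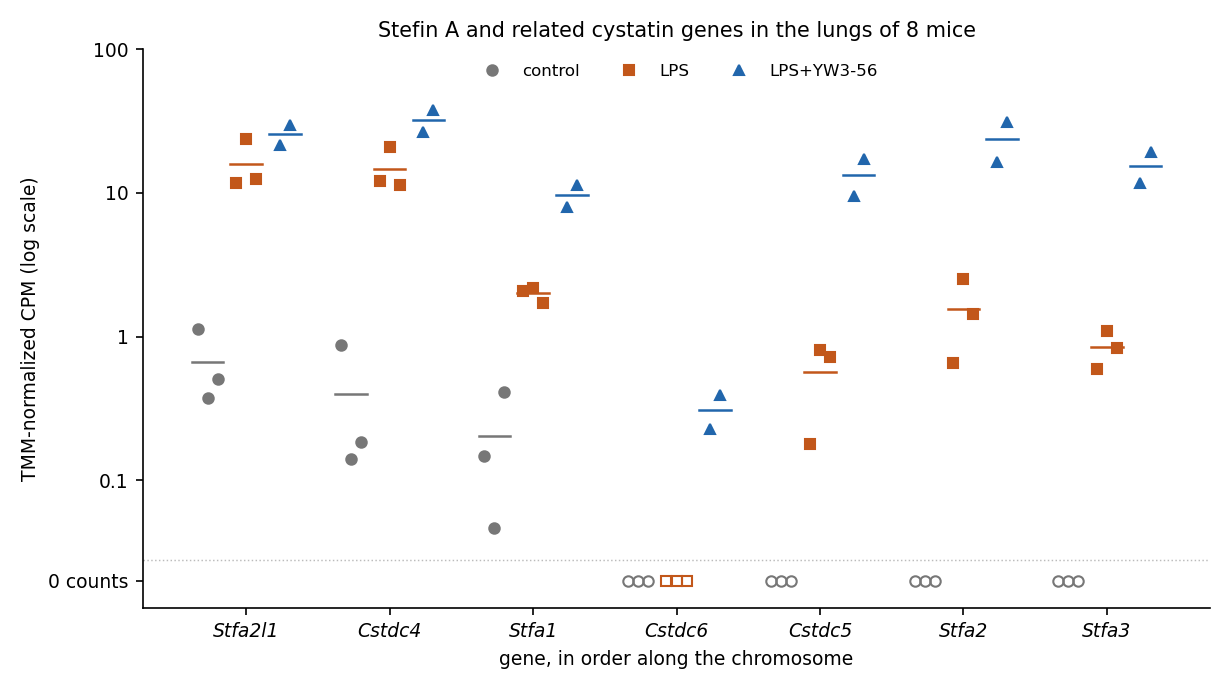
Level of each stefin A family gene in each of the 8 mice, in TMM-normalized CPM on a log axis; points are mice, short lines are group means and open symbols on the lowest line are libraries with 0 counts. LPS and LPS+YW3-56 mice lie closest for Stfa2l1, whose groups overlap under this scaling, and farthest apart for Stfa2, Stfa3 and Cstdc5.

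None of the directions described above changed when library size alone or DESeq2's size factors were used in place of TMM factors. The choice moved the size of the ratios. By library size alone, the median log2 fold change of all genes tested was -0.29 in LPS against control lungs, where TMM factors gave -0.01, and 0.38 in LPS+YW3-56 against LPS lungs, where they gave 0.06. The log2 ratio of the family sum between LPS+YW3-56 and LPS lungs was 2.06 by library size alone and 1.69 with DESeq2's factors. Both exceed the median of all genes under the same scaling, which was 0.01 with DESeq2's factors.

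A fit across all genes (edgeR quasi-likelihood, Benjamini-Hochberg adjustment) places these values among the rest of the transcriptome, with a gene called when its adjusted p was under 0.05 and its fold change over 2. Because the members were chosen with these libraries in view, nothing is read from their counts of calls. In LPS against control lungs, 6 of the 6 members tested were called higher and 0 lower, where 17.9% of all genes tested were called higher and 21.3% lower. In LPS+YW3-56 against control lungs, 6 of 6 were called higher and 0 lower, beside 5.25% higher and 1.9% lower among all genes. In LPS+YW3-56 against LPS lungs, 5 of 6 were called higher and 0 lower, beside 19.8% higher and 14% lower among all genes, and Stfa2l1 was the member that was not called. Every mouse of the first group lay above every mouse of the other for 6 of 7 members in LPS against control lungs, beside 34.7% of all genes tested. The same held for 7 of 7 members in LPS+YW3-56 against control lungs, beside 26.1%, and for 6 of 7 in LPS+YW3-56 against LPS lungs, beside 37.9%. The 7 members include Cstdc6, which did not pass the filter, whereas these shares cover only genes that did. Of all genes called, 45.6% were higher in LPS than in control lungs, or 32.5% by library size alone. Between LPS+YW3-56 and LPS lungs the share called higher was 58.5%, or 74.7% by library size alone. The comparisons share libraries and are not independent of each other.

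The fitted log2 fold changes between LPS+YW3-56 and LPS lungs come from the same counts as the ratios above and repeat their order. They ran from 0.68 (SE 0.36) for Stfa2l1 and 1.12 (SE 0.39) for Cstdc4 over 2.26 (SE 0.41) for Stfa1 to 3.93 (SE 0.50) for Stfa2, 4.19 (SE 0.35) for Stfa3 and 4.53 (SE 0.52) for Cstdc5. Differences between members were not tested.

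With these unequal ratios, the make-up of the family sum differed between LPS and LPS+YW3-56 lungs, a comparison within each library that no scaling factor enters. Stfa2l1 and Cstdc4 together made up 87.3% (95% exact binomial interval 83.9 to 90.2), 87.1% (84.7 to 89.2) and 83.4% (79.9 to 86.5) of the sum in LPS mice. In LPS+YW3-56 mice they made up 51.2% (49.1 to 53.4) and 46.0% (44.3 to 47.7). Since this pair was picked after the counts were seen, for its low ratios between the treated groups, its lower share in LPS+YW3-56 mice follows from the choice, and the intervals do not test it. In control mice the shares were 93.2%, 91.7% and 62.5% of 44, 12 and 24 counts, with intervals from 81.3 to 98.6, from 61.5 to 99.8 and from 40.6 to 81.2. The intervals of control mice 1 and 2 overlapped those of all LPS mice. That of control mouse 4 lay below those of LPS mice 1 and 6, and the control group as a whole was not ordered against LPS mice. Such intervals cover counting error only, since reads from PCR without molecular identifiers are not independent molecules.

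In absolute terms both sets were higher in LPS+YW3-56 lungs, by different amounts. Stfa2l1 plus Cstdc4 went from 30.8 ± 12.0 CPM in LPS lungs to 57.8 ± 13.7 CPM, or 1.88-fold. The other 5 members went from 4.96 ± 1.58 to 62.5 ± 23.6 CPM, or 12.6-fold, and so accounted for the larger part of the added transcripts. Among single members, the mean share of Stfa2 was 4.13 ± 1.52% in LPS and 19.3 ± 2.64% in LPS+YW3-56 lungs. The share of Stfa3 was 2.41 ± 0.451% and 12.8 ± 0.393%, and that of Cstdc5 1.59 ± 0.946% and 10.9 ± 1.18%. The share of Stfa1 was 5.96 ± 1.64% and 8.07 ± 0.536%.

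**Figure D2:**
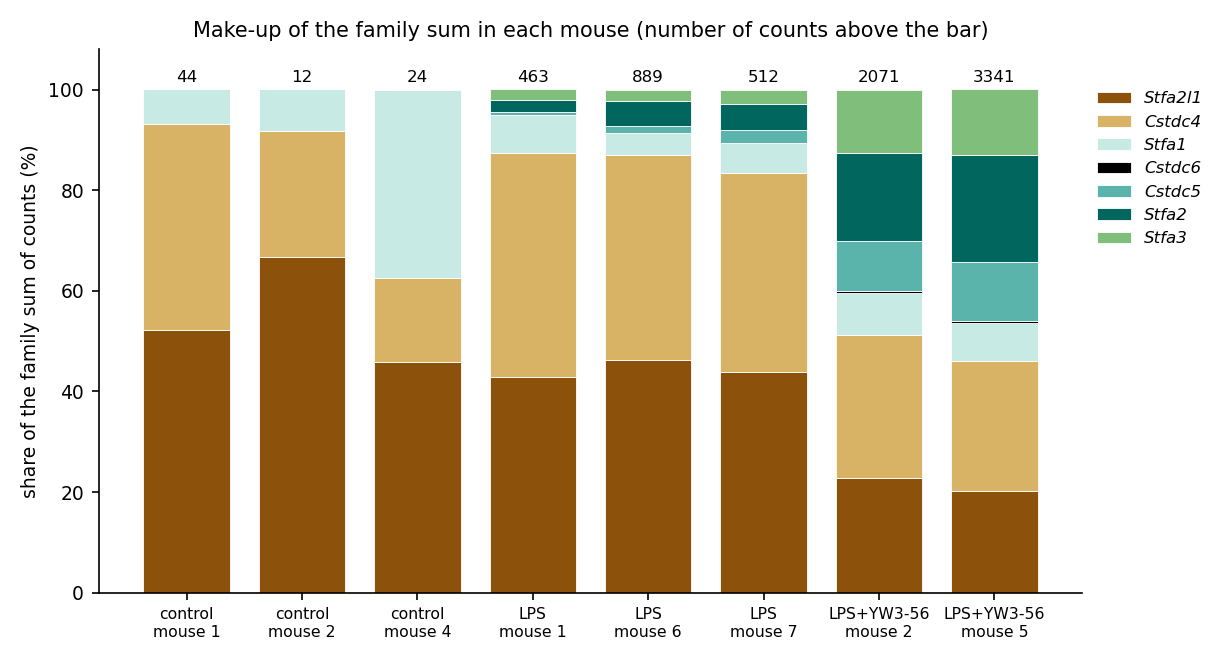
Share of each member in the summed counts of the 7 stefin A family genes, in percent, for each of the 8 mice; the number above a bar is the number of counts it rests on. Stfa2l1 and Cstdc4 make up 83.4% to 87.3% of the sum in LPS mice and 46.0% and 51.2% in LPS+YW3-56 mice.

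Compared per kilobase of annotated exon, the order of the genes also differed between the treated groups. In LPS lungs, Stfa2l1 had the highest level at 24.1 CPM per kilobase, then Cstdc4 at 7.54, Stfa1 at 1.79, Stfa2 at 1.53, Stfa3 at 1.35 and Cstdc5 at 0.464. In LPS+YW3-56 lungs, Stfa2l1 at 38.5, Stfa3 at 24.8 and Stfa2 at 23.4 CPM per kilobase led, followed by Cstdc4 at 16.4, Cstdc5 at 10.9, Stfa1 at 8.58 and Cstdc6 at 0.158. Stfa2 and Stfa3 had moved ahead of Cstdc4 in this order of means, with only 2 mice to judge the spread. The order depends on the length used, which is all annotated exons of a gene merged: 1964 bases for Cstdc4, 1012 for Stfa2 and 626 for Stfa3. In CPM, Cstdc4 had the highest mean of the members in LPS+YW3-56 lungs, at 32.2 against 23.7 for Stfa2 and 15.5 for Stfa3.

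The members lie within 299 kb of chromosome 16 (GRCm39, 35977176 to 36275884). Stfa2l1 (35977176 to 35982332), Cstdc4 (36004483 to 36008484) and Stfa1 (36093823 to 36105817) are on the plus strand. Cstdc6 (36142006 to 36154738), Cstdc5 (36179743 to 36191595), Stfa2 (36224305 to 36241288) and Stfa3 (36270893 to 36275884) follow on the minus strand. The 3 plus-strand members had counts in every control mouse, while the 4 minus-strand members had 0 counts in all of them and the largest ratios between LPS+YW3-56 and LPS lungs, Cstdc6 aside. The annotation (GENCODE M39) places 24 other genes between the outermost members, of which 21 are in the count files. Of these, 16 had 0 counts in every library and 3 (Gm6815, Gm10913 and Gm55316) had at most 3 counts in any library.

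The remaining pair, Csta2 and Csta3, are stefin genes of the cluster outside the 7 and can be tested, with the reserve that they share libraries with the choice. Csta2 (36041838 to 36077813, plus strand), between Cstdc4 and Stfa1, stood at 1.13, 0.751 and 0.690 CPM in control mice, 5.70, 6.53 and 3.52 CPM in LPS mice and 6.63 and 7.02 CPM in LPS+YW3-56 mice. It rose in all 3 LPS mice by a log2 fold change of 2.61 (SE 0.31, adjusted p = 6.09e-05, edgeR quasi-likelihood with Benjamini-Hochberg adjustment). LPS+YW3-56 lungs were higher than control lungs by 2.99 (SE 0.33, adjusted p = 0.000468, same test), and the difference from LPS lungs, 0.38 (SE 0.30, adjusted p = 0.299), did not pass. Csta3 (36030600 to 36038233, plus strand) had 0, 2 and 1 counts in control mice, 3, 11 and 9 in LPS mice and 4 and 12 in LPS+YW3-56 mice, and rose in LPS lungs (adjusted p = 0.0154). Its log2 fold changes of 2.76 in LPS+YW3-56 against control lungs (adjusted p = 0.0914) and -0.30 against LPS lungs (SE 0.79, adjusted p = 0.756) did not pass.

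**Figure D3:**
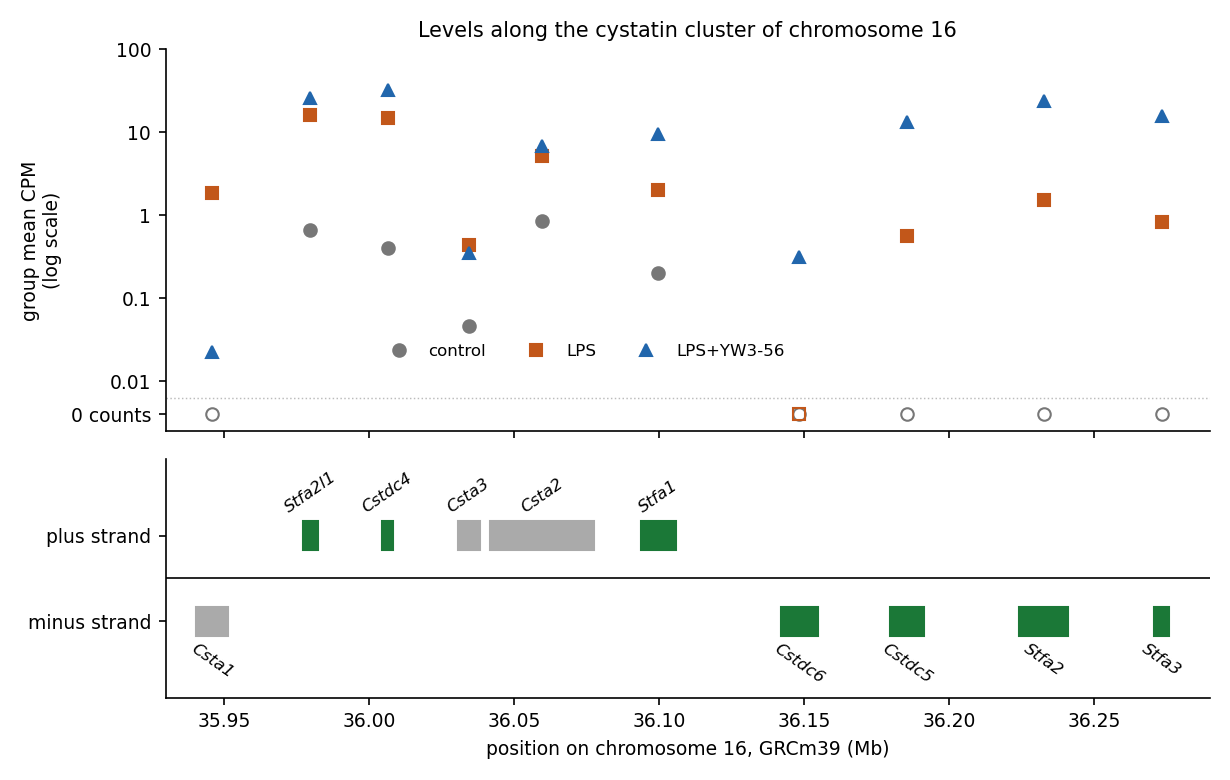
Group mean level (TMM-normalized CPM, log axis, open symbols for 0 counts) of the stefin genes at their position on chromosome 16 of GRCm39, with the span and strand of each gene below; green boxes are the 7 members and grey boxes other stefin genes. The LPS and LPS+YW3-56 means lie closest at Csta3 and Csta2, and on the right, from Cstdc5 to Stfa3, they lie farther apart than at Stfa2l1, Cstdc4 or Stfa1 and control means are 0; Csta1, at the left edge, was high in LPS mice 6 and 7 alone.

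Genes flanking the cluster moved in different directions. On the left, Csta1 (35940316 to 35951611, minus strand), a further stefin gene, had 0 counts in control mice and LPS mouse 1, 24 and 76 counts in LPS mice 6 and 7, and 1 and 0 counts in LPS+YW3-56 mice. Its counts thus lay in the libraries with squamous transcripts. Among LPS mice, Stfa2, Stfa3 and Cstdc5 were also higher in mice 6 and 7 than in mouse 1, with 44 and 26, 19 and 15, and 14 and 13 counts against 11, 10 and 3. So was Stfa2l1, with 412 and 225 counts against 198. Cstdc4 and Stfa1 were lower in mouse 7 than in mouse 1, with 202 against 206 and 31 against 35 counts. Each of these members was highest in mouse 6, and squamous transcripts were highest in mouse 7, at 2327 against 895 CPM in mouse 6. Mix23 fell in LPS lungs by 0.55 on the log2 scale (adjusted p = 0.0404, edgeR quasi-likelihood), and Fam162a, a mitochondrial protein gene, fell by 0.75 (adjusted p = 0.00352), neither of them over 2-fold. Like the stefin sum, both were higher in LPS+YW3-56 than in LPS lungs, Mix23 by 0.88 (adjusted p = 0.00841) and Fam162a by 0.78 (adjusted p = 0.00579). On the right, Casr, the calcium-sensing receptor gene, had 12 counts in LPS mouse 7, at most 3 elsewhere, and was not tested. Cd86, which encodes a costimulatory protein of antigen-presenting cells, rose in LPS lungs by 1.34 (adjusted p = 0.00167), and its difference between LPS+YW3-56 and LPS lungs was -0.67 (adjusted p = 0.0774). Ildr1 was lower in LPS+YW3-56 than in LPS lungs, with a log2 fold change of -1.06 (adjusted p = 0.000234).

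Close paralogs can exchange reads, so the sequences bear on how far single members can be told apart. The coding sequences of Stfa2 and Stfa2l1 are identical at 96.5% of aligned bases, those of Cstdc5 and Cstdc6 at 95.2%, and those of Cstdc4 and Csta2 at 96.9%. The mean ratio between LPS+YW3-56 and LPS lungs was 15.3-fold for Stfa2 and 1.60-fold for Stfa2l1. For Cstdc4 and Csta2 it was 2.18-fold and 1.30-fold. Over the 21 pairs of members, identity ran from 49.6% to 96.5% of bases, the lowest values belonging to pairs with Stfa1, whose chosen transcript model has 444 coding bases where the others have 291 to 312. These low values count the extra length as gaps. Over the 294 bases aligned without a gap, Stfa1 and Cstdc5 differ at 6 and are 98% identical, the closest pair of members on that scale. In the annotated transcripts of Stfa1, Stfa2, Stfa3, Stfa2l1, Cstdc4 and Cstdc5, 100% of all stretches of 150 bases, the read length, occur in no other gene. For Cstdc6 the share was 71.7%, so its 5 and 9 counts are the least certain. Over 50 bases the share was 85.8% for Stfa2 and 84.5% for Stfa2l1, which share stretches with each other and with the pseudogene Gm49652, 73.5% for Cstdc5, 85.3% for Stfa1 and 29.7% for Cstdc6, with 100% for Stfa3. Cstdc4 had 86.2%, sharing stretches of that length with 1386 genes. These are exact matches, and whether the authors counted reads that map to more than 1 place is not stated. Nor is the strand setting: Gm15845 overlaps the span of Cstdc5, Gm55314 that of Stfa1 and Gm22263 that of Stfa2 on the opposite strand, and Gm49652 lies within the span of Stfa2 on the same strand. All 4 had 0 counts in every library, and whether reads there were dropped is not known. The family sum does not depend on exchanges among its members.

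Since the members were high together, the sequence around annotated starts was also read. RefSeq's promoter table (GRCm38.p6), which spans 250 bases before to 50 after each start that RefSeq gives, holds 6 of the 7 members and not Cstdc6. All 6 carry TTTAAA, against 13.2% of the 32851 promoters in the table. These letters were added to the search after the sequences had been read. They begin 33, 29, 30, 29 and 31 bases before RefSeq's start of Stfa2l1, Cstdc4, Stfa1, Stfa2 and Stfa3, and 9 bases before that of Cstdc5. In GENCODE M39 the stretches below lie within an annotated exon for all members but Stfa2l1, and so after that annotation's gene start; which start is in use in these lungs was not tested. The surrounding 30 bases are shown because they are nearly the same in all 6, with TTTAAA in capitals, each 5′ to 3′ on the strand of its gene and placed on GRCm39 by exact match.
Stfa2l1, chr16:35977128-35977157, plus strand: aggaggagtttacagaaaccTTTAAAaccc
Cstdc4, chr16:36004533-36004562, plus strand: aggaggagtttacagataccTTTAAAaccc
Stfa1, chr16:36097460-36097489, plus strand: aggaggagctttcggataccTTTAAAaccc
Cstdc5, chr16:36187932-36187961, minus strand: aggaggagtttacagataccTTTAAAaccc
Stfa2, chr16:36228745-36228774, minus strand: aggaggagcttacagaaaccTTTAAAaccc
Stfa3, chr16:36275776-36275805, minus strand: ggaggagcttacagataaccTTTAAAaccc
The runs of Cstdc4 and Cstdc5 are the same letter for letter, and Cstdc4 was 2.18-fold and Cstdc5 23.4-fold higher in LPS+YW3-56 than in LPS lungs. Other motifs were searched on both strands. GAGGAA, the core bound by PU.1 and other ETS factors of myeloid cells, was in 6 of 6 member promoters and in 28.3% of all. TTNNGCAA, a C/EBP motif, was in Stfa1 and Cstdc5 and in 10.8% of all. GATAAG, also added after the sequences had been read, was in Stfa1, Cstdc5 and Stfa3 and in 7.44% of all. TATAAA, in 13.6% of all promoters, and the NF-kB consensus, in 4.51%, were in 0 of 6. Over the 250 bases before RefSeq's start, pairs of members are from 64.1% (Cstdc4 and Cstdc5) to 89.4% (Stfa2l1 and Stfa2) identical. The 6 promoters are thus not independent of each other, and a motif in all 6 cannot be weighed against its share over all promoters. Such matches are a description of letters and say nothing about binding.

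Because stefin A genes are known from neutrophils, the family was set beside neutrophil transcripts in the same libraries. S100a8 and S100a9, which encode abundant cytosolic proteins of mature neutrophils, summed to 144, 82.2 and 84.6 CPM in control mice, 1938, 2702 and 1703 CPM in LPS mice and 1343 and 1883 CPM in LPS+YW3-56 mice. The treated groups overlapped. Per 100 counts of S100a8 plus S100a9, the family had 1.50, 0.685 and 1.31 counts in control mice, 1.42, 1.90 and 1.68 in LPS mice and 7.0 and 7.79 in LPS+YW3-56 mice. On this scale LPS and control lungs overlapped, with a difference of mean log2 ratios of 0.58, and LPS+YW3-56 lungs stood above LPS lungs by 2.16, or 4.47-fold. The ratio depends on the neutrophil gene chosen. Against the 17 other genes of the mature neutrophil list the difference between LPS+YW3-56 and LPS lungs was 1.77, and against Csf3r, the receptor for granulocyte colony-stimulating factor, it was 0.82. Against Retnlg, a resistin-like gene of mature neutrophils, it was 0.25 and the groups overlapped. Family counts per 100 of Retnlg were 42.6 and 56.2 in LPS+YW3-56 mice and 29.1, 49.4 and 48.7 in LPS mice. Retnlg and Csf3r were themselves higher in LPS+YW3-56 than in LPS lungs, by log2 fold changes of 1.49 and 1.05. They are among the 7 genes of the list called higher there, and the 4 called lower were not used alone. Of the 17, Hdc was the largest in LPS lungs, at a mean of 373 CPM, and stood at 87.2 CPM in LPS+YW3-56 lungs. Retnlg, in the same sum, went from 85.7 to 241 CPM.

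**Figure D4:**
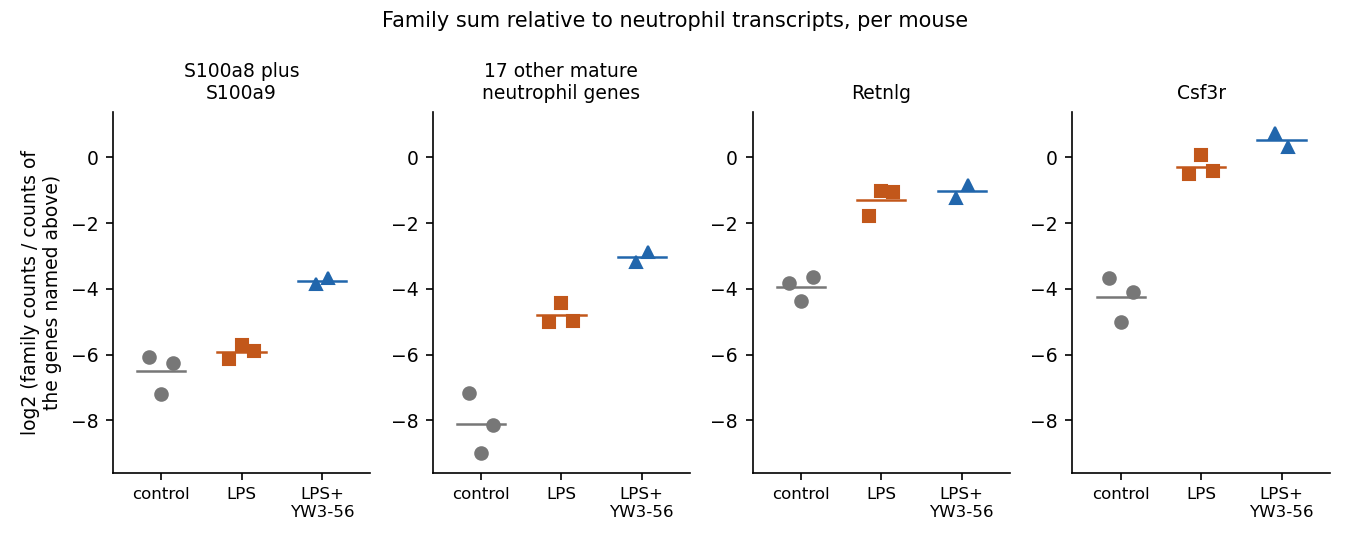
Log2 ratio of the summed counts of the 7 stefin A family genes to the counts of S100a8 plus S100a9, of the 17 other genes of the mature neutrophil list, of Retnlg and of Csf3r; points are mice and lines are group means. LPS+YW3-56 mice stand above LPS mice by 2.16, 1.77, 0.25 and 0.82 in that order, and overlap them for Retnlg.

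The neutrophil lists themselves did not move as one. Of 19 mature neutrophil genes, 18 were tested; 14 rose and 1 fell in LPS against control lungs, and 14 rose and 0 fell in LPS+YW3-56 against control lungs. Between the treated groups 7 rose and 4 fell in LPS+YW3-56 lungs, with a median log2 fold change of 0.25 beside 0.06 for all genes tested. Without LPS+YW3-56 mouse 5 a total of 7 were called there in place of 11, and without LPS mice 6 and 7 together 6 were. Retnlg rose in both LPS+YW3-56 mice against LPS mice by 1.49 (SE 0.36, adjusted p = 0.00579, edgeR quasi-likelihood), while S100a8, at -0.08 (adjusted p = 0.81), and S100a9, at -0.55 (adjusted p = 0.126), did not pass, nor did the formyl peptide receptor gene Fpr2, at 0.38 (adjusted p = 0.245). The 7 that rose were Retnlg, G0s2, Padi4, Fpr1, Cxcr2, Mmp8 and Csf3r, with log2 fold changes of 1.49, 2.00, 1.90, 1.80, 1.48, 1.08 and 1.05. The 4 that fell were Ly6g, Trem1, Asprv1 and Hdc, with log2 fold changes of -2.75, -1.19, -1.50 and -2.10. Asprv1, known from epidermis as well, stood at 42.2, 114 and 158 CPM in LPS mice and 29.2 and 44.8 CPM in LPS+YW3-56 mice, so the groups overlapped and its high values lay in the libraries rich in squamous transcripts. G0s2 fell in LPS against control lungs, by 2.87. The summed list was 450, 372 and 396 CPM in control mice, 2832, 3803 and 2613 CPM in LPS mice and 2201 and 2967 CPM in LPS+YW3-56 mice, with S100a9 the most abundant per kilobase. Median log2 fold changes of the list were 2.88 and 3.05 against control lungs, beside -0.01 and 0.00 for all genes.

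Most genes tested of earlier neutrophil stages were lower in LPS+YW3-56 than in LPS lungs. All 5 genes of the azurophil granule list, which stands for an early neutrophil stage, rose in LPS lungs. They fell in LPS+YW3-56 against LPS lungs (edgeR), with medians of 3.25 and -2.99 for the 2 comparisons. Without LPS+YW3-56 mouse 2, 3 were called between the treated groups in place of 5. Their sum was 3.62, 3.24 and 2.21 CPM in control mice, 33.5, 32.1 and 23.6 CPM in LPS mice and 5.04 and 5.84 CPM in LPS+YW3-56 mice, with Prtn3, the proteinase 3 gene, the most abundant per kilobase. Against control lungs 1 of the 5 rose in LPS+YW3-56 lungs, Prtn3, by 1.22 (SE 0.26, adjusted p = 0.0138), and 0 were called without control mouse 1, control mouse 4 or either LPS+YW3-56 mouse. Mpo, the myeloperoxidase gene, was lower in LPS+YW3-56 than in LPS lungs by a log2 fold change of -4.18 (adjusted p = 0.000262), Elane, the neutrophil elastase gene, by -4.16 (adjusted p = 0.000112), and Ctsg, the cathepsin G gene, by -1.97 (adjusted p = 0.0229). Of the 7 genes of the specific granule list, which stands for an intermediate stage, 6 were tested. All 6 rose in LPS lungs, 4 rose in LPS+YW3-56 against control lungs, and 4 fell and 0 rose in LPS+YW3-56 against LPS lungs, with medians of 3.72, 3.12 and -1.63. Their sum was 273, 261 and 223 CPM, then 14804, 15342 and 10929 CPM, then 4877 and 1367 CPM. In the treated mice most of it came from Lcn2, the lipocalin 2 gene, which lung epithelium also expresses. Lcn2 fell by 2.19 in LPS+YW3-56 against LPS lungs, Ltf, the lactoferrin gene, by 2.21 and Cd177 by 1.08, while Ngp, at -0.62 (adjusted p = 0.245), and Cebpe, at 0.02 (adjusted p = 0.983) and named after its values were seen, did not pass. The part of cell numbers and cell stages in the stefin levels was not tested.

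Other cystatins were called in both directions between the treated groups. Of 21 listed, 20 were in the files and 13 were tested. In LPS against control lungs 7 rose and 4 fell, with a median of 1.18 beside -0.01 for all genes. The total of 11 depends on libraries: it was 7 without LPS mouse 6, 7 without LPS mouse 7 and 5 without both. In LPS+YW3-56 against control lungs 3 rose and 0 fell, with a median of 1.03, or 0.93 with genes at 0 set to their bound; 1 was called without LPS+YW3-56 mouse 2 and 5 without mouse 5. In LPS+YW3-56 against LPS lungs 3 rose and 3 fell, with a median of 0.20, and 2 were called without LPS+YW3-56 mouse 5 and 3 without LPS mice 6 and 7. Cstb, which encodes stefin B, the other cytosolic stefin, stood at 59.9, 53.5 and 49.7 CPM in control mice, 127, 150 and 90.8 CPM in LPS mice and 128 and 94.3 CPM in LPS+YW3-56 mice. It rose in LPS lungs by 1.18 (SE 0.19, adjusted p = 0.000407) and in LPS+YW3-56 lungs by 1.03 (SE 0.20, adjusted p = 0.0094), and did not pass between them, at -0.14 (adjusted p = 0.576). The difference between Cstb and the stefin A sum was not tested. Cst3, the gene of the secreted cystatin C and the most abundant per kilobase of the list, fell by 0.41 in LPS lungs (adjusted p = 0.02), less than 2-fold. The 4 that fell in LPS lungs were Cst8, Cst9, Cstdc2 and Ahsg, of which Cst8, a cystatin gene of the reproductive tract, went from 6.61, 7.74 and 9.52 CPM in control mice to 1.13, 1.50 and 0.391 CPM. The summed list was 848, 792 and 878 CPM in control mice, 759, 798 and 609 CPM in LPS mice and 753 and 830 CPM in LPS+YW3-56 mice. Cst12, Cstdc1 and Hrg had 0 counts in all libraries.

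Among the 10 cysteine cathepsins, the class of enzyme that stefins inhibit, 1 rose and 2 fell in LPS against control lungs, 2 rose and 0 fell in LPS+YW3-56 against control lungs, and 1 rose and 0 fell between the treated groups (edgeR). That last count was 0 without LPS+YW3-56 mouse 5, 2 without mouse 2 and 2 by library size alone. Their summed level was 1898, 1761 and 1859 CPM in control mice, 3021, 2920 and 2359 CPM in LPS mice and 2904 and 2623 CPM in LPS+YW3-56 mice, so that the treated groups overlapped. Ctsb, the cathepsin B gene and the most abundant per kilobase, rose in LPS lungs by 1.33 (SE 0.11, adjusted p = 6.02e-06, edgeR quasi-likelihood). Its log2 fold changes in LPS+YW3-56 lungs were 0.88 against control lungs (adjusted p = 0.00126, same test) and -0.44 against LPS lungs (adjusted p = 0.0103). Both were less than 2-fold and are not in the counts above. Ctsz rose by 1.12 in LPS+YW3-56 against control lungs (adjusted p = 0.00189). Ctsc and Ctsh, at 0.25 and -0.10 in LPS against control lungs, did not pass. List medians were 0.32, 0.41 and 0.37, beside -0.01, 0.00 and 0.06 for all genes.

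The 10 genes outside the cluster whose log2 CPM ran most closely with the family sum over the 8 libraries were Fgr, Pla2g7, Mmp8, Fyb1, Snx20, Prkcb, Tgfbi, Rac2, Trem6l and Selplg, with Pearson r from 0.987 to 0.996 among 15606 genes compared. The 8 points fall into 3 groups, so that any gene with the order control, LPS, LPS+YW3-56 reaches a high r, and the values are a description. By Spearman's rho these genes had 0.952 to 1.0, and 8 of them were among the 55 genes at or above the rho of the 10th rank. Of these, Mmp8, the neutrophil collagenase gene, belongs to the mature neutrophil list. It stood at 5.04, 2.86 and 4.14 CPM in control mice, 26.9, 51.7 and 21.7 CPM in LPS mice and 68.6 and 73.2 CPM in LPS+YW3-56 mice. Fgr, a Src family kinase of myeloid cells, stood at 16.2, 10.3 and 12.6 CPM, then 46.0, 64.5 and 41.8 CPM, then 78.8 and 110 CPM. Both had the same order of groups as the stefin sum. The fitted log2 fold change between LPS+YW3-56 and LPS lungs was 0.90 (SE 0.23) for Fgr and 1.08 (SE 0.32) for Mmp8, against a log2 ratio of 1.75 for the family sum and 3.66 for its 5 members other than Stfa2l1 and Cstdc4.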

How the data were processed

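The deposited files hold raw counts per gene for each mouse, made by the authors with FastQC 0.11.9, Trim Galore, HISAT2 2.2.1 (GRCm39) and featureCounts 2.0.1 from paired reads of 150 bases; the annotation release, the strand setting and the handling of reads with several matches are not stated. Ensembl identifiers were matched to GENCODE M39 (54749 of 55416; the 667 unmatched hold 0.0533% of counts). The members and all lists were chosen with earlier results of these data known. Counts of all genes were filtered with filterByExpr by group and fitted in R 4.3.3 with edgeR 4.0.16. The fit used TMM factors, 1 group factor, quasi-likelihood, 5 residual degrees of freedom and Benjamini-Hochberg adjustment over all genes tested. Its p-values set a group difference against the spread between these mice. That spread is shared by the 3 groups and moderated across genes. Doses, times and ages are those of the study's methods. A floor of 3 counts per library was used for folds against a group at 0.

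Genes were named by rule: the 7 members; genes of the cluster with counts and 3 protein-coding neighbours on each side; the 4 most abundant genes per kilobase of a list and those called against its majority (for mature neutrophil genes, all called between the treated groups); and the 10 genes most like the family sum (log2 CPM, prior count 2, mean of at least 1 CPM). The 12 lists cover other cystatins, cysteine cathepsins, azurophil granule, specific granule, mature neutrophil, squamous, monocyte, alveolar macrophage, basophil and mast cell, eosinophil, erythroid and lung genes; Cst10 and Lor were not found by symbol. Identity was computed from GENCODE M39 coding sequences with Biopython 1.88, in place of the RefSeq proteins planned. Alternatives were library size alone, DESeq2 1.42.0 (factors and test), upper-quartile factors, no filter, the compared groups alone, unadjusted p and leaving out mice; the fit was also tested on simulated data.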

Additional observations from a re-analysis of the deposited data

How the results depend on the processing

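No paired analysis was possible because mouse numbers do not link the groups: controls are 1, 2 and 4, LPS mice 1, 6 and 7 and LPS+YW3-56 mice 2 and 5. Of 708 recomputed values, 633 stayed within the spread or within 1.5 times the count reported, 75 moved further and 0 reversed. All 28 for the family sum stayed, and 47 of 48 counts of genes called.

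Leaving out each mouse in turn, the log2 ratio of the family sum ran from 4.46 to 5.42 in LPS against control lungs, from 6.21 to 7.17 in LPS+YW3-56 against control lungs and from 1.39 to 2.10 between the treated groups, and its difference relative to S100a8 plus S100a9 from 2.05 to 2.26. Genes called numbered 6866 to 7595, 752 to 1831 and 5231 to 6188 in the same order of comparisons, with 752 in place of 1327 without LPS+YW3-56 mouse 2. Other cystatins called ran from 7 to 11, 1 to 5 and 2 to 6, cysteine cathepsins from 2 to 4, 2 to 3 and 0 to 2, and mature neutrophil genes from 15 to 16, 14 to 15 and 7 to 11. A group left with 1 mouse is assumed to vary like the others.

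With the compared groups alone, 6 other cystatins were called in LPS against control lungs in place of 11, where fewer samples set the spread. Without LPS mice 6 and 7, an alternative chosen after seeing the data, 5 were called there, and 3 other cystatins and 6 mature neutrophil genes between the treated groups. At an unadjusted p under 0.05, 6 other cystatins were called in LPS+YW3-56 against control lungs, since that rule is looser. By library size alone, 2 cathepsins were called between the treated groups in place of 1; the cause was not tested. The family sum relative to other denominators differed by 1.77 (17 mature neutrophil genes), 0.25 (Retnlg) and 0.82 (Csf3r) in place of 2.16, as the denominators themselves differ.

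Of 32 recomputed shares in the family sum 13 moved. Per kilobase, Stfa2l1 made up 65.1% in place of 44.4% in LPS and 31.8% in place of 21.6% in LPS+YW3-56 lungs, since it is short, and Cstdc4 20.7% in place of 41.6% and 13.5% in place of 27.1%. With all stefin-like genes of the cluster in the sum, Stfa2l1 plus Cstdc4 made up 70.4% in place of 85.9% in LPS and 45.7% in place of 48.6% in LPS+YW3-56 lungs. Of 14 recomputed shares of unique transcript windows 11 moved, as shorter windows match more often.

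With 2 LPS+YW3-56 mice, the spread of that group rests on 1 difference. Depth limits the control values of the family, 12 to 44 counts per library, and Cstdc6.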

Other observations

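Markers of other cells in these lungs also differed between LPS and LPS+YW3-56 mice, and their part in the stefin levels was not tested. Calls are from edgeR's quasi-likelihood test across all genes, medians are of log2 fold changes, and values follow the order of mice used above. Of 8 monocyte genes, 4 rose and 1 fell in LPS against control lungs, 5 rose and 0 fell in LPS+YW3-56 against control lungs, and 2 rose and 1 fell between the treated groups, with medians of 1.92, 3.17 and 0.46. Their sum was 946, 691 and 961 CPM, then 1424, 1384 and 869 CPM, then 1376 and 2064 CPM, with Chil3 the most abundant per kilobase. Ccr2, a chemokine receptor gene of classical monocytes, fell in LPS against control lungs by 3.19 (adjusted p = 1.12e-06) and was higher in LPS+YW3-56 than in LPS lungs by 3.77 (adjusted p = 2.42e-06). Vcan, the versican gene, was lower in LPS+YW3-56 than in LPS lungs, by a log2 fold change of -1.30 (adjusted p = 0.00214).

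Of 10 alveolar macrophage genes, 0 rose and 3 fell in LPS against control lungs, 1 rose in LPS+YW3-56 against control lungs, and 4 rose and 0 fell between the treated groups, with medians of -0.32, 0.23 and 1.05. In place of that 1, 4 were called without LPS+YW3-56 mouse 5 and 2 with no filter. Their sum was 385, 486 and 366 CPM, then 422, 489 and 404 CPM, then 1181 and 525 CPM. Car4, the most abundant per kilobase, is also on the lung list. The high sum of LPS+YW3-56 mouse 2 came mostly from Fabp4, at 741 CPM there and 38.2 CPM in mouse 5. The scavenger receptor gene Marco rose in LPS+YW3-56 against LPS lungs by 1.53 (adjusted p = 0.00434).

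All 5 erythroid genes fell in LPS+YW3-56 against control lungs and against LPS lungs, and 0 were called in LPS against control lungs by edgeR, at an unadjusted p under 0.05 or by DESeq2, with medians of -2.89, -2.41 and -0.22. Their sum was 1734, 3908 and 2785 CPM, then 3284, 1884 and 1468 CPM, then 426 and 381 CPM, with Hba-a1 the most abundant per kilobase. LPS+YW3-56 lungs, in which stefin A transcripts were highest, thus held the lowest level of red cell transcripts.

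Of 8 basophil and mast cell genes 6 were tested: 2 rose and 1 fell in LPS against control lungs, 0 were called in LPS+YW3-56 against control lungs (3 at an unadjusted p under 0.05, 1 without LPS mouse 1, 1 with no filter and 0 by DESeq2) and 2 fell between the treated groups, with medians of -0.04, -2.14 (-1.60 with genes at 0 set to their bound) and -2.34. Their sum was 3.67, 6.57 and 4.74 CPM, then 12.8, 7.68 and 6.25 CPM, then 1.95 and 2.37 CPM. The basophil protease gene Mcpt8 had 55, 15 and 14 counts in LPS mice and 0 in both LPS+YW3-56 mice; Prss34, also a basophil protease gene, was the most abundant per kilobase. Of 5 eosinophil genes 3 were tested: 1 rose in LPS and 1 in LPS+YW3-56 against control lungs, and 2 rose and 1 fell between the treated groups, with medians of 0.86, 2.73 and 2.82. The 1 in LPS lungs was 0 without control mouse 1, control mouse 2, LPS mouse 7 or both LPS mice 6 and 7, and the 1 in LPS+YW3-56 against control lungs was 2 without LPS+YW3-56 mouse 5, with no filter or at an unadjusted p under 0.05. Their sum was 1.08, 0.986 and 1.84 CPM, then 2.55, 2.14 and 2.57 CPM, then 11.8 and 8.21 CPM. Ear6, the most abundant per kilobase, made up 6.67 and 8.03 CPM of the last pair. Il5ra, the other gene that rose between the treated groups, had 106 counts in LPS+YW3-56 mouse 2 and 1 in mouse 5, so that its call came from 1 library. Epx, the eosinophil peroxidase gene, had 1 count in LPS mouse 1 and 0 elsewhere.

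Of the 17 squamous epithelium genes tested, 11 rose and 1 fell in LPS against control lungs, 0 were called in LPS+YW3-56 against control lungs by edgeR, at an unadjusted p under 0.05 or by DESeq2, and 1 rose and 11 fell between the treated groups. These counts depend on libraries and settings. In LPS against control lungs 12 became 4 without LPS mouse 6, mouse 7 or both, and 2 with the compared groups alone. Against control lungs, the 0 of LPS+YW3-56 lungs became 3 without LPS mouse 1, without LPS mice 6 and 7 or with the compared groups alone, and 2 with no filter. Between the treated groups 12 became 5 without LPS mouse 6, 4 without mouse 7, 5 without both, and 6 or 5 without LPS+YW3-56 mouse 2 or 5. With genes at 0 set to their bound, the medians were 7.13, 0.00 and -6.61, where the fitted medians were 8.99, 0.47 and -7.61. The signal came from LPS mice 6 and 7, with 286 and 887 CPM of Krt13, the most abundant per kilobase, against 0.297 CPM in LPS mouse 1. Ivl, the involucrin gene, was the exception, at 2.69, 2.25 and 2.80 CPM in control mice, 0.356, 0.0578 and 0.0558 CPM in LPS mice and 1.91 and 2.90 CPM in LPS+YW3-56 mice. The lung list had medians of -0.20, -0.38 and -0.17.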
